A study of Mus musculus with 4 samples.

Results

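The comparison set the transcript profile of a myr-Akt culture of mouse fetal liver progenitors against that of the non-transformed culture. It used 2 of the 4 arrays of the series, 1 array per culture. Every probe set that the platform annotation gives to 1 gene was a member, 34945 of 45101, and together they stood for 18193 genes. Both cultures were p53-/- and both grew in DMEM and F12 medium with the growth factors HGF, at 50 ng/ml, and EGF, at 20 ng/ml, and with 10% serum, dexamethasone, nicotinic acid, 2-mercaptoethanol, an insulin, transferrin and selenium supplement and antibiotics. The loss of p53 and the growth factors were therefore common to both. The introduced gene is AKT1 with a myristoyl anchor. The sources used here do not say how it was introduced, which promoter drives it, or whether a culture was a pool or 1 clone. With 1 array per culture there is no spread between replicates, no standard error and no test, so each difference below is between those arrays. The only repeat measurement is a further probe set for the same gene, which shares both RNA samples and is no replicate.

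AKT is a serine and threonine kinase that PI3K lipids recruit to the plasma membrane, and the myristoyl anchor places it there without that step. Active AKT phosphorylates FOXO transcription factors, which keeps them out of the nucleus, and relieves the brake that the TSC complex places on mTORC1, a kinase complex that promotes ribosome, nucleotide and lipid synthesis. In hepatocytes AKT carries the insulin signal to glucose and lipid metabolism.

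Values are MAS5 signals, which are linear and scaled so that the trimmed mean of each array was 500.003. Signals under 100.001, which is 20% of that mean, were set to this floor. A gene takes the value of its brightest single-gene probe set. Differences are myr-Akt minus non-transformed on the log2 scale, and for a gene at the floor on 1 array the size is a lower limit, given as at least so many times. Of 18193 genes, 10218 were above the floor in non-transformed cells, 9510 in myr-Akt cells and 9284 in both. The 5' to 3' ratio of the beta-actin control, which falls when RNA is degraded, was 0.889 for non-transformed and 0.846 for myr-Akt, and that of Gapdh was 1.24 and 1.25.

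More genes were lower than higher in myr-Akt cells. Of 10444 genes above the floor on at least 1 array, 524 (5.02%) were higher by 2-fold or more and 1355 (13.0%) lower by as much, and the median gene was at -0.035. Among the 9284 genes above the floor on both arrays the shares were 5.08% and 10.4%. The excess of lower genes grew with size: 41 genes were at least 4-fold higher against 393 lower, and 10 at least 8-fold higher against 105 lower. It was also wider among dim genes. Among the 2611 genes with the lowest mean signal 3.79% were higher and 18.5% lower, whereas among the 2611 with the highest 4.71% were higher and 8.43% lower. The counts above are the background for each gene group below. The plot of both arrays shows where 4 of these groups lay.

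**Figure D1:**
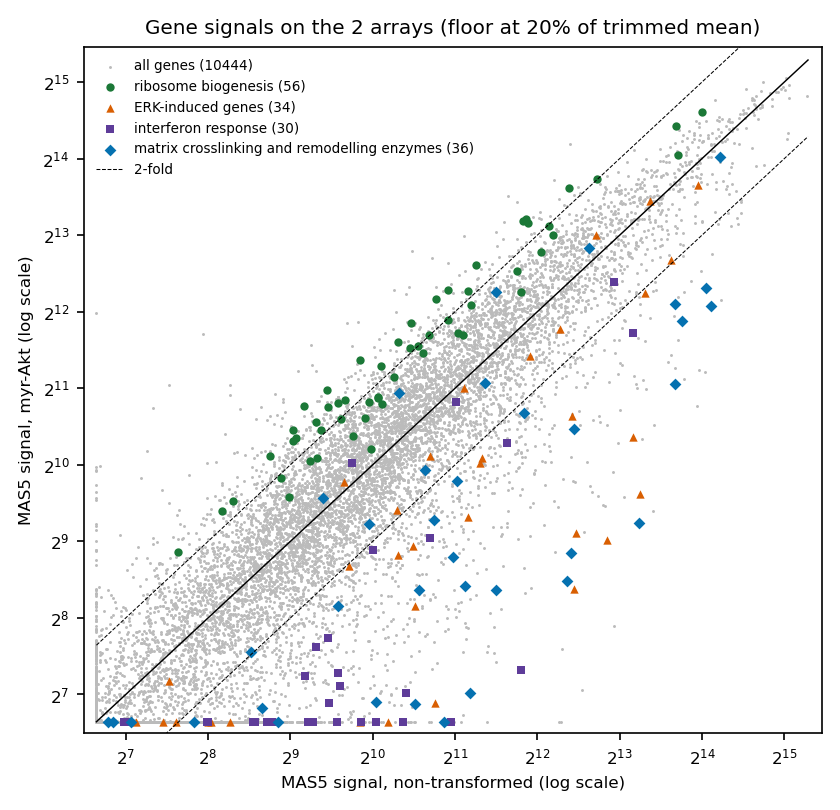
MAS5 signal of 10444 genes on the non-transformed array (x axis) and the myr-Akt array (y axis), both on log scales with values under the floor set to it. The solid line marks equal signals and the dashed lines 2-fold. All 56 ribosome biogenesis genes lie above the solid line, 29 of them at or past the upper dashed line, while 20 of 34 ERK-induced genes, 25 of 30 interferon response genes and 24 of 36 matrix crosslinking and remodelling enzymes lie at or past the lower one.

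The label was checked against the genes it names. Akt1 was at 1870.1 in non-transformed and 2834 in myr-Akt cells, a log2 difference of 0.60, and its next brightest probe set gave 0.56. All 3 of its 4 probe sets that were above the floor were higher, by 0.13 to 0.60, and none by 2-fold. The sources used here do not say whether these probe sets bind the introduced sequence, so they do not settle the label. The array labelled H-RasV12 was at 2760.3 and that labelled c-Myc at 2991, so the Akt1 signal of the myr-Akt array lay within the range of the other transformed cultures. The label c-Myc is not borne out by Myc either: its only probe set was at 421 on that array, the lowest of the 4, against 2285 in non-transformed cells, and whether it binds the introduced sequence is likewise not said. Akt2, the isoform that carries the insulin signal in liver, was at 866 and 855.

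The labelled cell type was checked against marker genes. The hepatoblast markers Afp, Alb, Ttr and Hnf4a were at the floor on both arrays, and Apoa1, the main apolipoprotein of HDL, was at 623 in non-transformed cells and 29.5, under the floor, in myr-Akt cells. Of the remaining hepatoblast markers, Gpc3, a glypican of fetal liver, was at 3576 and 1889.5, and Dlk1, a surface marker of hepatoblasts, at 117 and 145. The 5 mesothelial markers, by contrast, were all above the floor on both arrays: Upk3b was at 15167 and 12838, Wt1 at 3419 and 3772, Gpm6a at 4314 and 6812 and Lrrn4 at 2121 and 1688. Only Msln of the 5 differed by 2-fold, at 7836 and 238. The endothelial markers Pecam1, Cdh5, Kdr and Tek, the red cell gene Hba-a1 and the leukocyte gene Ptprc were at the floor on both. The remaining blood markers lay near the floor: Cd68 was at 122 and 110, just above it, and Csf1r at 78.4, under it, and 119. Of the biliary markers, Krt19 was at 2322 and 1493, Krt7 at 1620.5 and 445, and Epcam at 112 and 179. Sox9 was at 388 and 28.4, under the floor. Signal of the main hepatoblast markers was thus under the floor in both cultures. That of the mesothelial markers and of Krt19, Krt7 and Epcam was above it, and the cultures are called here by their labels.

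All 7 stellate and fibroblast markers were at least 2-fold lower in myr-Akt cells. Des, which encodes the muscle intermediate filament desmin, was at 1175 and 119, Prrx1, a mesenchymal transcription factor, at 1932 and 231, and Col1a1, a fibrillar collagen, at 12325 and 2598. The receptor genes Pdgfra and Pdgfrb and the pericyte gene Rgs5 were at 389.7, 769.8 and 623 in non-transformed cells and under the floor in myr-Akt cells. The summed signal of these markers was 18201.8 in non-transformed and 3297.0 in myr-Akt cells. These are cultures measured in bulk, in which fewer cells of a type and less RNA per cell cannot be told apart. The marker sum, of which Col1a1 is the largest part, moves in the same direction as the matrix, contractile and integrin groups below. The list of cadherins, catenins and tight junctions had 2 of 18 lower by 2-fold (11.1% against 13.0% of all genes). It had 2 higher (11.1% against 5.02%). The part of the marker sum in those results was not tested.

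Where a gene had 2 probe sets above the floor on both arrays, both usually gave the same direction. Over 4072 such genes the gap between their log2 differences had a median of 0.217 and a 90th percentile of 0.673, and it passed 1 for 129 genes. Both probe sets were at least 2-fold higher for 105 genes and at least 2-fold lower for 234. Of the 524 higher genes, 238 had a further probe set above the floor on at least 1 array, of which 229 were also higher and 117 (49.2%) also by 2-fold. Of the 1355 lower genes, 565 had one, of which 553 were also lower and 361 (63.9%) by 2-fold. No gene was 2-fold higher by 1 of these probe sets and 2-fold lower by the other. Of all 18193 gene values, 3696 came from probe sets ending in _s_at, _x_at or _a_at, which can bind several transcripts, so genes with near-identical copies, such as H2-D1, Gstm1, C1s1 and Hspa1b, are less certain. The largest disagreement in sign was at Neat1, a nuclear long noncoding RNA, at -1.58 by the brightest and at least 0.84 by the next.

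**Figure D2:**
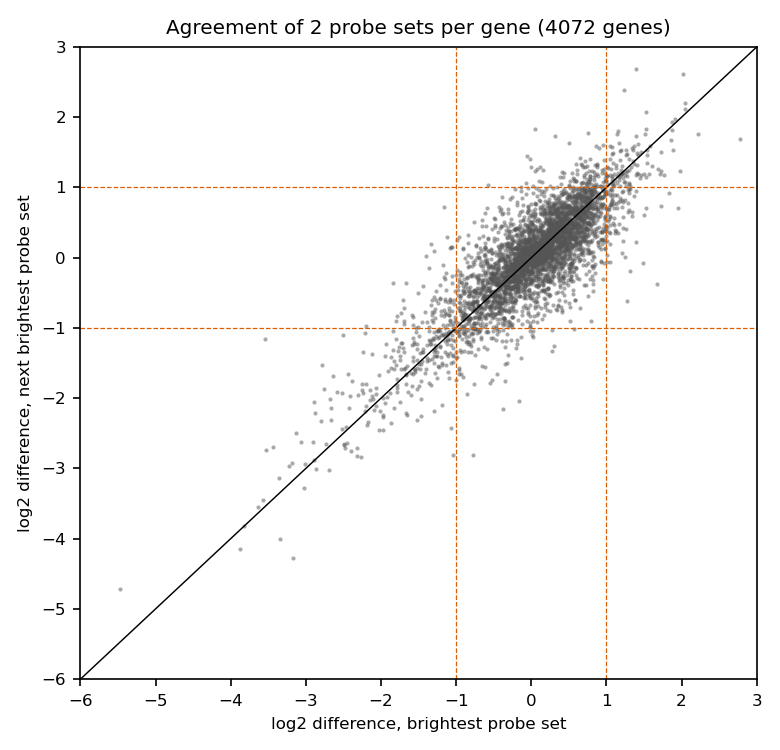
Log2 difference of the brightest (x axis) and next brightest (y axis) single-gene probe set of 4072 genes for which both were above the floor on both arrays. The solid line marks equality and the dashed lines 2-fold. The upper right corner holds 105 genes, the lower left corner 234, and neither of the other corners holds a gene.

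The genes with the largest differences that 2 probe sets shared were of mixed function on the higher side. Hoxd8, a homeobox transcription factor, was at 309 and 2118, a log2 difference of 2.78, with 1.69 by the next probe set. Gstm1, a glutathione transferase, was at 905 and 3739.7 (2.05 and 2.21). Mtm1, the phosphoinositide phosphatase myotubularin, was at 1229 and 5005 (2.03 and 2.61). A folate carrier, a mitochondrial protein and a surface glycoprotein followed. Slc19a1, the reduced folate carrier, was at 419.5 and 1539 (1.88 and 1.93). Chchd10, a protein of mitochondrial cristae, was at 2217 and 8128 (1.87 and 1.82). Cd24a, a surface glycoprotein of progenitor cells, was at 3212 and 11635 (1.86 and 1.68). Matrix and lipid genes were also present on this side. Fbn2, a fibrillin of developing microfibrils, stood at 1.92, and Agpat5, an acyltransferase of phospholipid synthesis, at 1.88. The remaining 7 of the 15, Isoc1, Fads6, Creg1, Gclm, Tbx18, Rpf2 and Peg3, lay between 1.52 and 2.22.

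On the lower side the agreed differences were larger. Prkg2, a cGMP-dependent protein kinase, was at 5954 in non-transformed and 134 in myr-Akt cells, 44.6 times lower, with -4.72 by its next probe set. Ccnd1, which encodes the G1 regulator cyclin D1, was at 7334 and 517, 14.2 times lower, and all 3 of its probe sets were lower by 2-fold, from -3.83 to -2.85. Hmga2, an architectural chromatin protein of fetal cells, was at 9738 and 784, and its 4 probe sets ranged from -3.63 to -1.87. The other genes fell into matrix, adhesion and noncoding groups. Mmp2, a gelatinase, was at 5254 and 359 (-3.87 and -4.15), and Bgn, the proteoglycan biglycan, at 15761 and 1748 (-3.17 and -4.28). Cd44, the hyaluronan receptor, was at 10918 and 1466, and Ncam1, a neural cell adhesion molecule, at 3655 and 403. Meg3, an imprinted noncoding RNA, was at 7749 and 959. It is measured by 11 probe sets, of which all 10 above the floor were lower, 8 of them by 2-fold. Clu, Pcolce, Prss23, Htra1, Anxa8, Fblim1 and Tns1 completed the 15, between -3.57 and -2.87.

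**Figure D3:**
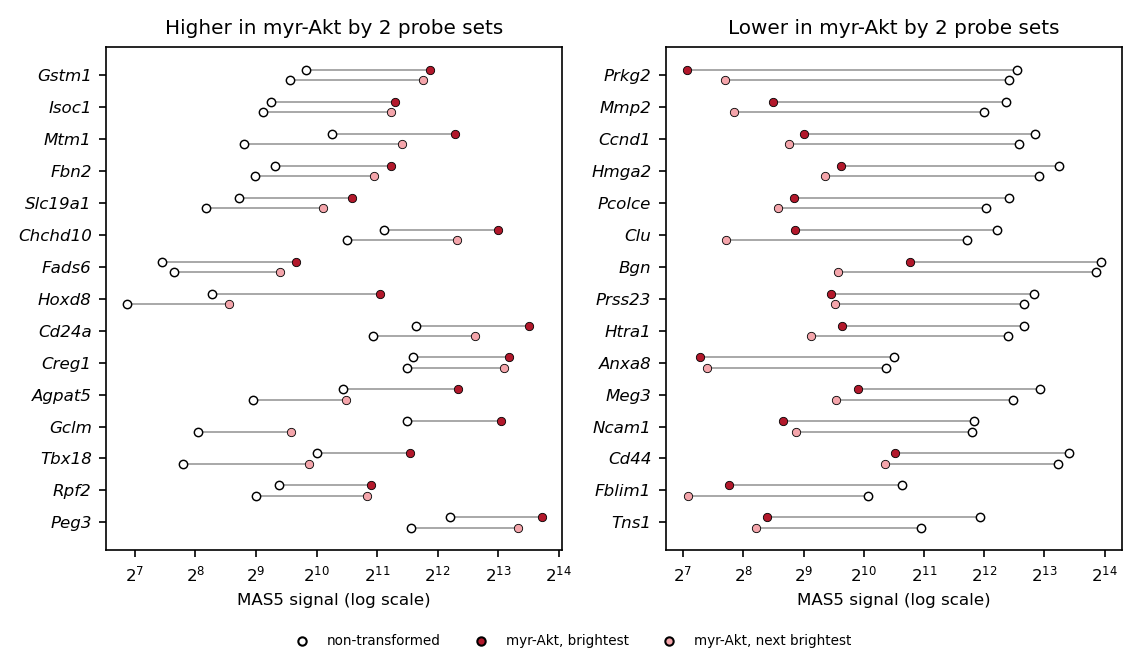
MAS5 signal (x axis, log scale) of the 15 genes per direction with the largest difference shared by their 2 brightest probe sets. Open circles are non-transformed and filled circles myr-Akt, dark for the brightest and light for the next brightest probe set, joined by a line. The lines on the left span log2 differences of 1.52 to 2.78 and those on the right of -5.48 to -2.73.

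A further set of genes left or entered the measured range by 2 probe sets. Both probe sets of 45 genes went from above the floor in non-transformed cells to the floor in myr-Akt cells, each by at least 2-fold. The brightest was Dkk1, a secreted WNT inhibitor, at 2688 and 30.7, at least 26.9 times lower. Tgfbi, a matrix protein induced by TGF-beta, was at 1896 and 73.2, and Serpinf1, which encodes the antiangiogenic factor PEDF, at 1862 and 69.0. The opposite held for 4 genes: Grip1, a scaffold for glutamate receptors, was at 31.3 and 569, Slc1a3, a glutamate and aspartate transporter, at 34.1 and 319, Rapgef5, an exchange factor for RAP, at 295 from under the floor, and Krt14, a basal keratin, at 38.5 and 248. Genes with 1 probe set had no such repeat. The largest of them were Plac1, a placental gene, at 245 and 3348, Smpdl3b, a membrane phosphodiesterase, at 184 and 2100.5, and on the lower side Msln, the surface protein mesothelin, at 7836 and 238, and Mgp, an inhibitor of calcification, at 5030.3 and 192.

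Genes that carry or restrain the PI3K signal showed no shift as a group. Of 38 measured members, 2 (5.26%) were higher by 2-fold or more, 3 (7.89%) were lower, and the median was -0.07, close to that of all genes. Those that were lower act upstream of PI3K or on it. Igf1r, the receptor for insulin-like growth factors, was at 3429 and 1268 (-1.44, and -1.30 by the next probe set). Irs1, the adaptor that links such receptors to PI3K, was at 2754 and 1203. Pik3ip1, an inhibitor of PI3K, was at 235 and, under the floor, 44.5, at least 2.35 times lower. The members that were higher were Pik3r3, a regulatory subunit of PI3K, at 319.8 and 800.4, and Sesn2, a stress-induced brake on mTORC1, at 482 and 1013.

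Of 29 measured genes that FOXO factors induce, 6 were at least 2-fold lower (20.7% against 13.0% of all genes) and 1 higher, with a median of -0.37. Among the 24 above the floor on both arrays, 3 were lower by 2-fold, against 10.4% of all such genes. Of the lower members, 3 had a further probe set above the floor. All 3 were also lower by it, but only 1 by 2-fold. Pdk4, which restrains glucose oxidation, was at 1300.4 in non-transformed cells and 45.1 in myr-Akt cells, at least 13.0 times lower. Selenop, the plasma selenium carrier, was at 7099 and 710.0, 10.00 times lower. Txnip, which inhibits thioredoxin and glucose uptake, was at 3186 and 671, 4.75 times lower, with -1.88 by its next probe set. Klf2, a zinc finger transcription factor, was at least 4.45 times lower, and Pik3ip1, given above, and Trib1, a pseudokinase, at -1.03, made up the 6. Depp1, also a FOXO-induced gene, went the other way, from 90.6, under the floor, to 973, at least 9.73 times higher, and its next probe set gave at least 2.64. The other 22 members of the list were within 2-fold. Summed over the list, the signal was 48247 in non-transformed and 34676 in myr-Akt cells.

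Selenop and Txnip are shown because, of the 5 lower FOXO-induced genes with a RefSeq promoter window, they are the ones whose window holds the FOXO element. The element searched was GTAAACA on both strands, chosen after the values were seen, within windows of 250 bases before to 50 bases after the start site. It was in 3.65% of all 32851 windows and in 6 of 37 windows of the list (16.2%). The other list genes that hold it were not lower: Bbc3 stood at 0.68, Bcl2l11 at 0.23 and Sesn1 at 0.17. Trim63, which also holds it, was at the floor on both arrays. Each stretch below ends before the start site, is given 5' to 3' on the strand of the gene, and has the element in capitals. A match is a description of the sequence and shows no binding. The Selenop stretch is chr15:3270913-3270976 on the plus strand and the Txnip stretch chr3:96557796-96557882 on the plus strand, both of GRCm38.p6 from RefSeq.
Selenop: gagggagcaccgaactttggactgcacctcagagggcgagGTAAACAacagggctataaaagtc
Txnip: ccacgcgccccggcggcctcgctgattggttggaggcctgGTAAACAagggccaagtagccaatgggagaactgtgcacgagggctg

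Ribosome biogenesis genes were higher throughout. All 56 measured genes had a higher signal in myr-Akt cells, 29 of them by at least 2-fold (51.8% against 5.02% of all genes) and 0 lower by 2-fold, with a median of 1.01 against -0.035. They span the steps of the pathway. Polr1b, a subunit of RNA polymerase I, which transcribes ribosomal RNA, was at 431 and 1106. Heatr1 and Utp14a, parts of the machinery that processes the small subunit, were at 918 and 2638 and at 699 and 2011. Noc2l, a nucleolar protein, was at 576 and 1750.2, the largest difference of the list at 1.60, and gave 1.31 by its next probe set. Enzymes that modify ribosomal RNA passed 2-fold as well. Fbl, the methyltransferase fibrillarin, was at 5364 and 12537, and Dkc1, the pseudouridine synthase dyskerin, at 3710.1 and 9510.2. Of 16 members called higher that had a further probe set above the floor, all 16 were also higher by it and 11 by 2-fold. Under the alternatives tried, the median of the list lay between 0.97 and 1.06.

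The E-box, the element that MYC and related factors bind, was looked for in the same windows as CACGTG, which reads the same on both strands. It was in 7.15% of all windows and in 10 of 53 windows of this list (18.9%), which cover 49 of its 56 genes. Of 26 genes that were at least 2-fold higher and had a window, 5 held it. List genes short of 2-fold also held it: Imp4, at 0.81, Nop2, at 0.89, Pes1, at 0.84, Mybbp1a, at 0.81, and Rrn3, at 0.68. Utp18, a protein of the small subunit processome, is shown as the example, at 1411 and 3706. Its stretch is chr11:93885767-93885826 on the minus strand of GRCm38.p6 from RefSeq, with the E-box in capitals ending 14 bases before the start site. The next probe set of Utp18 was under the floor in the control array and just over it in the myr-Akt array, which allows a bound of 0.07. Myc itself was at 2285 in non-transformed and 639.7 in myr-Akt cells, 3.57 times lower, by its only probe set.
Utp18: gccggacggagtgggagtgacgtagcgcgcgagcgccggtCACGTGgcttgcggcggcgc

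Other genes of growth were higher by less. All 19 cytosolic aminoacyl-tRNA synthetases, which charge tRNAs with amino acids, were higher with a median of 0.40, and none reached 2-fold. Of 29 translation factors, 24 were higher with a median of 0.39, and 2 by 2-fold: Eif4e, the cap-binding protein, at 5241 and 10639, and Eif1a, which helps to find the start codon, at 1747 and 3601. Nucleotide synthesis came closer to ribosome biogenesis. Of 26 genes of purine, pyrimidine and polyamine synthesis, 9 (34.6%) were higher by 2-fold or more, 0 were lower, and the median was 0.82. The 7 higher members with a further probe set above the floor were all higher by it, 4 of them by 2-fold. On the pyrimidine side Cad, which starts the pathway, was at 885 and 2353, Dhodh, its mitochondrial step, at 348 and 882, and Umps, which completes UMP, at 638 and 1832. On the purine side Ppat, which commits to the pathway, was at 610.3 and 1631, and Gart, an enzyme of several later steps, at 1445 and 3634. Genes of pyrimidine and purine synthesis were thus both among those at least 2-fold higher. Of 16 serine, glycine and folate genes, 1 passed 2-fold, Shmt1, a serine hydroxymethyltransferase, at 263 and 689.

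The cell cycle genes of S phase were higher and those of G1 were mixed. Of 46 DNA replication genes, 43 were higher, 12 of them by at least 2-fold (26.1%), and 0 lower by 2-fold, with a median of 0.80. Cdc6 and Orc1, which load the replicative helicase, were at 573 and 1588 and at 205 and 523. Gins1, a part of the active helicase, was at 921 and 2405. E2f2, a transcription factor of S phase entry, was under the floor in non-transformed cells and at 599 in myr-Akt cells, at least 5.99 times higher. Mitotic genes were higher by less: 37 of 40 were higher with a median of 0.63, and 3 passed 2-fold (7.5% against 5.02% of all genes). They were Bub1b, a spindle checkpoint kinase, at 1.30, Mybl2, a regulator of mitotic genes, at 1.12, and Ccna2, which encodes cyclin A2, at 1.03. DNA repair genes had a median of 0.33, and 3 of 31 (9.68%) passed 2-fold, Chek1 (1.39), Exo1 (1.35) and Ung (1.17), none lower.

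In the G1 group, 4 of 18 (22.2% against 13.0% of all genes) were at least 2-fold lower and 1 (5.56% against 5.02%) higher. The median was -0.36. Beside Ccnd1, the lower members were CDK inhibitors. Cdkn2b was at 4539 and 1162, Cdkn2a at 5697 and 2381 and Cdkn1a, which encodes p21, at 455 and 205. The inhibitor Cdkn1c, an imprinted gene, was the higher member, at 103, just above the floor, and 1016, 9.90 times higher by its only probe set. Cyclin D1 and 3 CDK inhibitors were thus lower in the same cells in which replication genes were higher. Of 19 chromatin genes, 4 (21.1% against 5.02%) were higher by 2-fold or more and 1 (5.26% against 13.0%) was lower, with a median of 0.57. Uhrf1, which guides maintenance methylation of DNA, was at 985 and 2162 and Hells, a remodeller, at 1332 and 3106. The methyltransferase Dnmt3b was under the floor in non-transformed cells and at least 2.83 times higher, and its next probe set gave at least 0.10 on the log2 scale. The histone variant gene H2az2 was the lower one, at 5134 and 2501, a log2 difference of -1.04, and its next probe set was at the floor in myr-Akt cells.

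In glycolysis and lactate handling, 6 of 24 were at least 2-fold lower and 2 higher, with a median of -0.11. Hk1, a hexokinase, was at 1514 and 319, Slc2a3, the glucose transporter GLUT3, at 4267 and 1057, and Pdk1, a kinase that inhibits pyruvate dehydrogenase, at 766 and 202. Each was also lower by its next probe set, at -1.36, -2.19 and -1.98. Higher were Aldoc, an aldolase, at 401 and 1722, and Slc16a1, the lactate transporter MCT1, at 3464 and 11068. In the pentose phosphate pathway, which makes NADPH and ribose, 2 of 9 were at least 2-fold higher: Rpia, which makes ribose phosphate, at 823 and 3714, and Pgd, a dehydrogenase, at 3940.5 and 9675. No member of that list was 2-fold lower.

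Of 37 genes of mitochondrial respiration, biogenesis and the TCA cycle, 33 were higher, with a median of 0.46, but only Ppargc1b, a coactivator of mitochondrial genes, passed 2-fold, at 145 and 908. Cholesterol genes had a median of 0.43, and 3 of 21 passed 2-fold: Dhcr7, which makes cholesterol from its last precursor, at 1.24, Stard4, a sterol carrier, at 1.07, and Lss, which closes the sterol rings, at 1.05. Of these, 2 had a further probe set above the floor, and both were higher by it but short of 2-fold. The fatty acid list had 1 of 25 higher, Elovl6, a fatty acid elongase, at 1.09, and 1 lower, Pparg, a regulator of fat storage, at -1.73. Among hypoxia targets, 0 of 16 were 2-fold higher and 2 lower (12.5%, near the 13.0% of all genes). The higher share in the cholesterol list (14.3%) was above that of all genes, and that in the fatty acid list (4.0%) and the mitochondrial list (2.7%) below it.

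Redox genes included some of the larger higher values. Of 29 NRF2 targets and glutathione genes, 8 (27.6%) were higher by 2-fold or more, 2 were lower, and the median was 0.43. Gclc and Gclm, both subunits of the enzyme that begins glutathione synthesis, were at 2109 and 5728 and at 2895 and 8421. Abcc4, an export pump, was at 859 and 3001. The lower members were Gpx3, the secreted glutathione peroxidase, at least 16.4 times lower, and Mgst3, a microsomal glutathione transferase, at -1.89. Of the 8 higher members, 4 had a further probe set above the floor, and all 4 were at least 2-fold higher by it. Among amino acid transporters Slc1a5, a glutamine carrier, was at 479 and 1565, while Slc7a2, a carrier of arginine and lysine, was at 463 and 175, and the list of 20 had 3 higher and 2 lower.

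Stress genes were mixed. Of 30 ATF4 and unfolded protein response genes, 5 (16.7% against 5.02% of all genes) were higher by 2-fold or more. A further 2 (6.67% against 13.0%) were lower, and the median was 0.15. Fgf21, a metabolic hormone, was at 69.7, under the floor, and 1001, and Herpud1, a part of endoplasmic reticulum protein disposal, at 1210.4 and 3508. Nupr1, a stress-induced chromatin protein, was lower, at 3562 and 1147, as was Atf5, a related transcription factor, at 2237 and 889.5. Of 26 cytosolic chaperones, 21 were higher with a median of 0.52, with Hsph1 at 1.16 and Hspa1b at 1.23, while the small heat shock genes Cryab and Hspb1 were at -1.12 and -1.04. Apoptosis genes had 5 of 20 lower, among them the survival gene Bcl2, at 582 and 145, and 1 higher, Pmaip1, which encodes the BH3-only protein NOXA, at 456 and 1608. Bcl2l2 was also lower, at 1044 and 436, as was Birc3, at 518.5 and, under the floor, 77.2. Casp12 and Casp4, inflammatory caspases, were at least 5.99 and 2.08 times lower.

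Lysosome and autophagy genes were lower together. Of 30 measured, 28 were lower, 9 of them by at least 2-fold (30.0% against 13.0%), and 0 higher by 2-fold, with a median of -0.55. Wipi1, which helps to form autophagosomes, was at 1717 and 205, 8.37 times lower, with -2.29 by its next probe set. Hexa, a subunit of the hexosaminidase lost in Tay-Sachs disease, was at 6547 and 1542. Gm2a, its activator protein, was at 3299.6 and 831, so an enzyme and its cofactor were both lower. Among cathepsins, the lysosomal proteases, Ctso was at 556 and 178, and Ctsf was at 303 and under the floor. The summed signal of the list was 113269 in non-transformed and 71762 in myr-Akt cells.

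**Figure D4:**
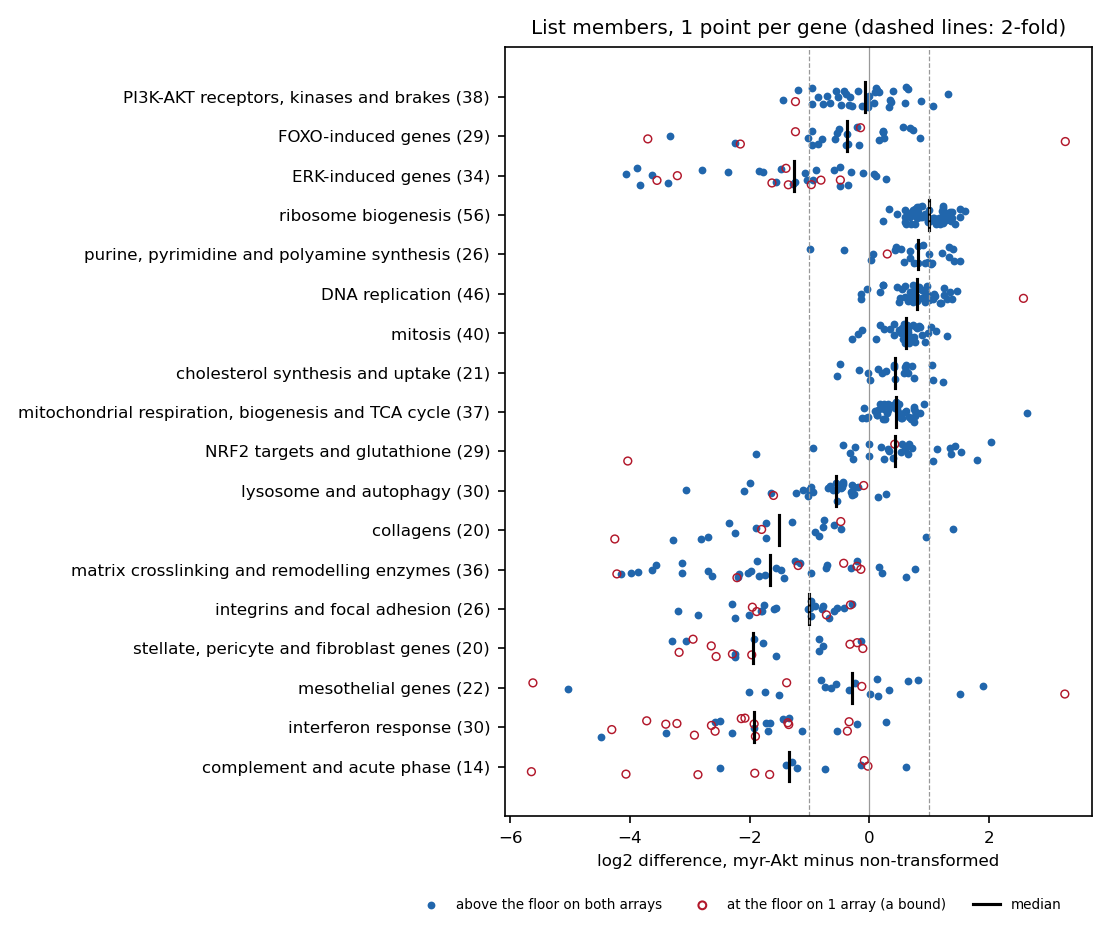
Log2 difference (x axis, myr-Akt minus non-transformed) of the measured members of 18 gene lists, 1 point per gene, with the number of members in brackets. Filled points were above the floor on both arrays, open points at the floor on 1 and so bounds, and black bars are medians. Ribosome biogenesis lies wholly above 0 with a median of 1.01, and the stellate, matrix enzyme and interferon lists have medians of -1.94, -1.65 and -1.93.

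Genes that ERK signalling induces were largely lower. Of 34 measured, 20 were at least 2-fold lower (58.8%) and 0 higher, with a median of -1.26. The other 14 were within 2-fold, among them bright early-response genes. Egr1 was at 10598 and 11191, Fos at 15828 and 12862 and Jun at 6734.8 and 8167.5. Dusp4 and Dusp6, phosphatases that switch ERK off, were at 5569.5 and 333 and at 9169 and 1314. Ereg, the EGF-family ligand epiregulin, was at 1731 and 118. Il11, a cytokine, was at 1169 and, under the floor, 17.2. The family of MAPK phosphatases and Sprouty proteins, taken whole, was not uniform: 8 of 17 were at least 2-fold lower, and 2 higher. The higher ones were Dusp8, a phosphatase of JNK and p38, at 181 and 397, and Spry3, a Sprouty family member, at 110.0, just above the floor, and 329. Dusp5, a nuclear ERK phosphatase, was at 2528 and 1042, and Spred1, an inhibitor of RAF activation, at 1439 and 491.

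Matrix genes were lower in each group measured, with exceptions. Of 20 collagens, 11 were at least 2-fold lower (55.0%) and 1 higher, with a median of -1.51. Col8a1, a short-chain collagen, was at 1907 and 75.3, under the floor, Col11a1, a minor fibrillar collagen, at 8084 and 1252, and Col18a1, a basement membrane collagen, at 1216 and 174. The higher member was Col6a2, a chain of the beaded filaments, at 2231 and 5900.2, with 1.49 by its next probe set. Its partner chain Col6a1 was at 4198 and 8128, short of 2-fold at 0.95. Of 35 glycoproteins and proteoglycans, 21 were lower and 2 higher, Fbn2 and Postn. Postn, which encodes periostin, was under the floor in non-transformed cells and at 470.4 in myr-Akt cells. Fbln2, a fibulin of elastic fibres, was at 16811 and 2364, and Lama2, a laminin chain, was at 679 and under the floor.

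Enzymes that build and cut the matrix had the largest share of lower members among the matrix groups: 24 of 36 (66.7%), none higher by 2-fold, with a median of -1.65. Loxl1 and Loxl3, which crosslink collagen and elastin, were at 9627 and 606 and at 1463 and 118. Adamts12, a secreted protease, was at 2319 and 130.1. All 13 lower members with a further probe set above the floor were at least 2-fold lower by it. Of 26 integrin and focal adhesion genes, all 26 were lower, 13 by at least 2-fold, with a median of -1.01. Cav1 and Cav2, the caveolins, were at 8229.7 and 1675 and at 2229 and 244, and Itga5, a chain of the fibronectin receptor, was at 988 and 209. Fn1, its ligand, was at 22781 and 9971, 2.28 times lower.

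Contractile genes and targets of TGF-beta, YAP and SRF were lower with them. Of 28 actin and contractile genes, 10 (35.7%) were lower by 2-fold or more, 0 were higher, and the median was -0.77. Actg2, a smooth muscle actin, was at 2832 and 235, Myl9, a myosin light chain, at 9849 and 1295, and Cnn1, a calponin, at 5604 and 873. Only 2 lower members of this list had a further probe set above the floor, and both were lower by it, 1 by 2-fold. Of 30 TGF-beta, YAP and SRF targets, 13 were lower (43.3%) and 1 higher. Inhba, an activin chain, was at 1152 and 184, and Fst, the activin inhibitor follistatin, at 1162 and 215, so a ligand and its antagonist were both lower. Tgfb1 was at 1119.6 and under the floor, but its next probe set, at 107, allowed a bound of only -0.10. Id2, an inhibitor of helix-loop-helix factors, was the higher one, at 2012 and 4233.

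WNT genes were lower on the whole and split among ligand modulators. Of 26 measured, 11 were at least 2-fold lower (42.3%) and 2 higher. Beside Dkk1, the antagonists Dkk3 and Sfrp1 were lower, Dkk3 at least 5.06 times and Sfrp1 from 1156 to 238. The ligand Wnt11 was at 865 and 110.2. The R-spondins, which amplify WNT signals, differed in direction: Rspo3 was at 295 and 1350.2, and Rspo1 at 3676 and 1101. The next probe set of Rspo3 was near the floor, with a bound of 0.07. Among junction genes, the cadherin Cdh11 of mesenchymal cells was at 1222 and 204, while Cgn, the tight junction protein cingulin, was at 122 and 541 and Dsg2, a desmosomal cadherin, at 491 and 1099.8.

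Interferon response genes had the highest share of lower members of all 49 lists, 25 of 30 (83.3% against 13.0%), with 0 higher by 2-fold and a median of -1.93. Of the 15 that were above the floor on both arrays, 12 were at least 2-fold lower. Ifi27, an interferon-induced membrane protein, was at 3580.4 and 159, 22.5 times lower, with -4.22 by its next probe set. Irgm1, a GTPase of defence against intracellular microbes, was at 1361 and 129.5. Ifit1, which binds foreign RNA, and its family member Ifit3 were at 1056 and 596 in non-transformed cells and under the floor in myr-Akt cells. The same held for Gbp2, a guanylate-binding protein, at 757 and 67.2, and Igtp, at 440.0 and 64.4. For the other 15 of the 30, at the floor on 1 of the arrays, the size is only a lower limit. The 7 lower members with a further probe set above the floor were all lower by it, 6 of them by 2-fold.

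The interferon element, GAAA followed by any pair of bases and GAAA again, was looked for on both strands of the promoter windows. It was in 3.44% of all windows and in 15 of 35 windows of this list (42.9%), and 12 of the 21 lower genes with a window held it. The stretches of Irgm1, Ifit1, Gbp2, Ifit3 and Igtp are shown because their signals are given above. Capitals mark the element, which on the strand shown may read as its complement, TTTC, any pair of bases and TTTC, and joined capitals are overlapping matches. All are from RefSeq on GRCm38.p6, given 5' to 3' on the strand of the gene, and end before the start site: Irgm1 chr11:48871421-48871490 on the minus strand, Ifit1 chr19:34640745-34640853, Gbp2 chr3:142620564-142620653, Ifit3 chr19:34583333-34583456 and Igtp chr11:58199482-58199555, these 4 on the plus strand.
Irgm1: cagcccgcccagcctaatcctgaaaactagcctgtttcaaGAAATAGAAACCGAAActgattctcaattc
Ifit1: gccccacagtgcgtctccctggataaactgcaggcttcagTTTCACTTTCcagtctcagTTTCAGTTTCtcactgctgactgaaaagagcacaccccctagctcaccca
Gbp2: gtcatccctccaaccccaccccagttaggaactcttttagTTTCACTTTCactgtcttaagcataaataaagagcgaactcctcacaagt
Ifit3: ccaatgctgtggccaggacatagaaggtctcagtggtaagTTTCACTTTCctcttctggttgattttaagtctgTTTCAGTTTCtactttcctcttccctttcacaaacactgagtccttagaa
Igtp: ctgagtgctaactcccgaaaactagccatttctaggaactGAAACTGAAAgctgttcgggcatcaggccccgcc

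In these stretches the elements of Ifit1 and Ifit3 came in pairs, and that of Irgm1 as an overlapping pair ending 14 bases before the start site. The sequences describe where the letters stand and do not show which factor was bound.

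Other genes of inflammation were lower too. Of 27 chemokines, cytokines and NF-kB targets, 12 were at least 2-fold lower (44.4%) and 0 higher. The 6 lower members with a further probe set above the floor were all lower by it, but only 2 by 2-fold. Il33, an alarmin cytokine, was at 8515 and 767, Vcam1, a leukocyte adhesion molecule, at 3074 and 412, and Icam1, a related one, at 675 and 143. Of 14 complement and acute phase genes, 9 were lower (64.3%) and 0 higher. With probe sets that end in _s_at, _x_at or _a_at left out, 5 were lower. C1s1, a protease of the classical complement pathway, had the largest bound of the comparison, from 5014 to 83.5, at least 50.1 times lower, and Lcn2, an iron-siderophore binding protein, went from 1675 to 8.2. Genes of MHC class I presentation were lower by less: 2 of 8 passed 2-fold, H2-D1, a class I heavy chain, at 2701 and 1114, and Tapbp, which loads peptides, at 2983 and 1216.

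Of 22 mesothelial genes, 6 (27.3% against 13.0% of all genes) were lower by 2-fold or more and 3 (13.6% against 5.02%) higher. Their median was -0.28. Crabp1, which binds retinoic acid, was at 4928 and 1.9, at least 49.3 times lower, and Msln was 32.9 times lower. In the other direction Aldh1a2, which makes retinoic acid, was at 31.7, under the floor, and 968, Bnc2, a zinc finger protein, at 479.9 and 1806, and Tbx18, a T-box factor, at 1032 and 2969.9. The enzyme that makes retinoic acid and a protein that binds it thus differed in opposite directions. Of 20 stellate, pericyte and fibroblast genes, which include the 7 markers above, all 20 were lower, 13 by at least 2-fold. Nes, the intermediate filament nestin, was at 905 and under the floor in myr-Akt cells.

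The keratins of simple epithelia were lower in myr-Akt cells. Krt18 was at 3689.7 and 321, 11.5 times lower, and its partner Krt8 at 601 and 35.2, at least 6.01 times lower. Krt7, a keratin of bile ducts, was at 1620.5 and 445, and Krt19, another, at 2322 and 1493, short of 2-fold. Among biliary genes Sox9, a transcription factor of bile duct and progenitor cells, was at 388 and under the floor, and Hey1, a target of Notch, was higher, at 382 and 1544. Of 11 biliary and progenitor genes, 4 were lower (36.4% against 13.0% of all genes) and 2 higher (18.2% against 5.02%), the second being Cd24a. Of 33 hepatoblast and hepatocyte genes with a probe set, 11 passed the floor on either array, 2 of them 2-fold lower and 1 higher. Of 20 endothelial genes with a probe set, 4 were above the floor, and Ptprb, a vascular phosphatase, was at 1571 and 314.

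Imprinted and IGF genes held large values on both sides. Of 16 imprinted growth genes, 4 were higher by 2-fold or more and 4 lower. Igf2, the fetal insulin-like growth factor, was at 3975 and 8384. Peg3 and Ndn, both expressed from the paternal copy, were at 4701 and 13445 and at 854 and 2294, and for Peg3 all 3 probe sets above the floor were higher by 2-fold. Beside Meg3, the lower members included Mest, which like Peg3 and Ndn is expressed from the paternal copy, at 3471 and 1173. Nnat was also lower, at 3539.5 and 778. Paternally expressed genes were thus found on both sides. In the IGF axis, 6 of 15 were lower and 3 higher. Igfbp5, a binding protein, was at 18.3, under the floor, and 4052, at least 40.5 times higher, but its next probe set went only from 54.9 to 125, a bound of 0.33, and the brighter one ends in _s_at, a type that can bind several transcripts. Igfbp7 was at 15987 and 2413, and Igfbp6 at 3567 and 1140.3.

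The myr-Akt array was last set against all 3 others, a rule chosen after values were seen. With 1 array per culture, no test of these differences could be made. Of all 18193 genes, 46 were at least 2-fold higher on the myr-Akt array than on any other array and 73 lower. No such count is given here for the other arrays, so these numbers are not set apart as particular to myr-Akt. Some genes named above were at similar levels on the myr-Akt array and that labelled c-Myc. Ccnd1 was at 517 and 514 on them, Cd44 at 1466 and 1471, Txnip at 671 and 755 and Heatr1 at 2638 and 2392.5. How many genes were alike on these arrays was not counted. Aldh1a2 was at 968 on the myr-Akt array and under the floor on the rest, as were Cldn10, a claudin of tight junctions, at 802, Postn, at 470.4, and Epyc, a small proteoglycan of cartilage, at 432. On the array labelled c-Myc, whose label the Myc probe set does not settle, as given above, Hoxd8 was at 301. It was at 32.4 on the H-RasV12 array, 309 on the non-transformed array and 2118 on the myr-Akt array. Pik3r3 was at 319.8, 316 and 316 on the non-transformed array and those labelled H-RasV12 and c-Myc, which were near equal, and at 800.4 on the myr-Akt array. On the lower side Cyba, a subunit of NADPH oxidase, was at 2756, 2536 and 2016 on those arrays and at 267 on the myr-Akt array. Twist1, a mesenchymal transcription factor, was at 987, 1164 and 748 and at 208.

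Xist, the noncoding RNA that coats the inactive X chromosome, was also lower on the myr-Akt array than on the others, at 559.5 against 6070.0, 6249 and 4209 on the non-transformed array and those labelled H-RasV12 and c-Myc. The Y-linked genes Eif2s3y, Kdm5d and Uty were at 534.5, 318.1 and 146.1 in non-transformed and at 944.8, 365.8 and 204.2 in myr-Akt cells, so both Xist and Y-linked signals were above the floor on both arrays. Their part in the other differences was not tested.

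**Figure D5:**
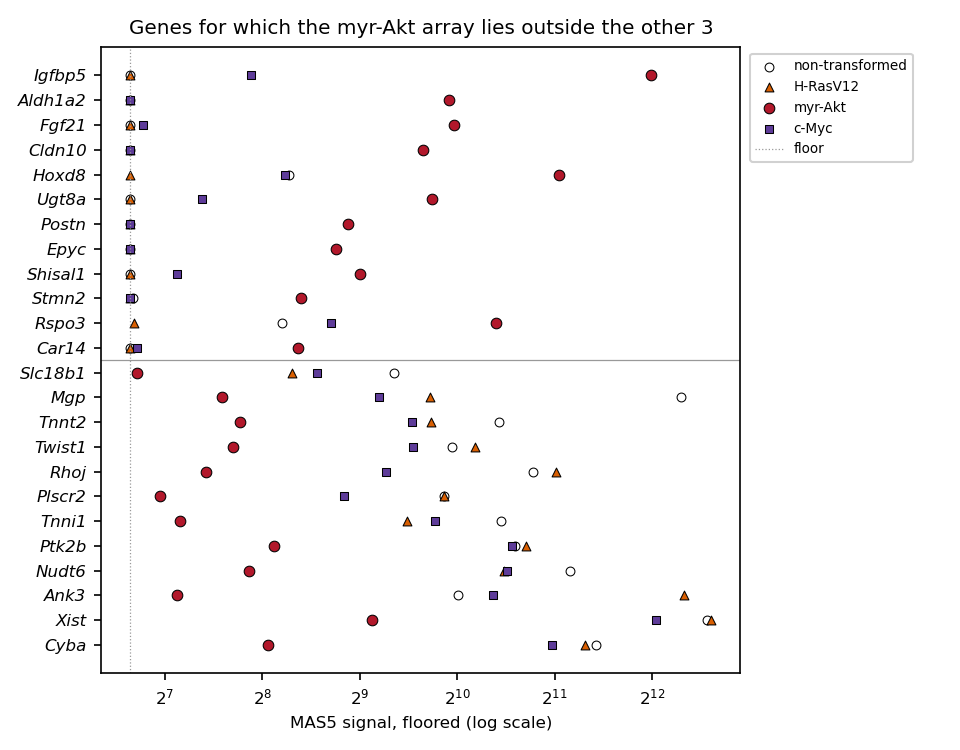
MAS5 signal (x axis, log scale, values under the floor set to it) on each of the 4 arrays for the 12 genes per direction, clone-named genes left out, for which the myr-Akt array lay farthest outside the range of the other 3. Filled red circles are myr-Akt, open circles non-transformed, triangles the array labelled H-RasV12 and squares that labelled c-Myc, and the dotted line is the floor. Igfbp5 stands farthest above the others, 17.1 times over the nearest array, and Cyba stands farthest below them.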

How the data were processed

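The series holds 1 expression array for each of 4 cultures, of which the arrays labelled myr-Akt and non-transformed were compared. Groups came from the labels. The authors deposited linear probe-set intensities from MAS5 software, as the submitters' processing notes name it. Its version, calls of detection and any filtering are not stated in those sources. No scan date or batch is labelled, so a batch and the cultures cannot be told apart.

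The signals were scaled to 1 trimmed mean (2% at each end), floored at 20% of it and taken to log2. Of 45101 probe sets, 64 were controls. The platform annotation gave 1 symbol to 34945, several to 932 and none to 9160, and names were checked against RefSeq (34741 matched, 0 updated). The brightest single-gene probe set stood for each gene. A gene 2-fold apart was counted among the 10444 that passed the floor on either array, and no p-value was computed. The number of arrays limits the precision.

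The members and the 49 gene lists were chosen with earlier results of these data known. Named genes were, per direction, the 15 with the largest difference shared by 2 probe sets, the 6 brightest at the floor on 1 array by 2 probe sets, the 10 largest with 1 probe set, up to 5 members of each list, and the introduced gene and its family, leaving out predicted and clone-named genes. Neat1, Trib1, Polr1b, Fbl, Dkc1, Gbp2, Ifit3, Igtp, Col6a1, Fn1, Xist, the Y-linked genes and those set against all other arrays were named after their values were seen. So were Egr1, Fos, Jun, Imp4, Nop2, Pes1, Mybbp1a and Rrn3. Hras and Trp53 were not analysed here. The alternatives were 8 other settings. Counting was tested on simulated data. The work used Python 3.11.15, numpy 2.4.6, pandas 2.3.3 and matplotlib 3.10.9.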

Additional observations from a re-analysis of the deposited data

How the results depend on the processing

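No paired analysis was possible because each culture has 1 array, and no array could be left out. Across the 8 other settings the count of higher genes ran from 360 with a pseudocount of 100 in place of the floor to 644 with quantile normalization, and that of lower genes from 1000 with a floor of 40% to 1733 with a floor of 10% of the trimmed mean. The share of called genes whose further probe set was also 2-fold apart was 59.5%, and 53.6% with probe sets ending in _s_at, _x_at or _a_at left out. That setting also took the complement and acute phase genes at least 2-fold lower from 9 to 5, and the median of the hepatoblast list from -0.18 to 0.08. A floor at 40% moved the median of the WNT list from -0.87 to -0.32, with fewer genes above it. The median of the 5 measured erythroid and haematopoietic genes, -0.15, was 0.05 with a floor at 10% and 0.14 with quantile normalization. Beyond what this construction shows, the causes were not tested. Of 237 named genes past 2-fold, none changed direction under these settings (204 had a value with the former probe sets left out), and 23 were short of 2-fold with a floor at 40% and 21 with the mean over probe sets, which gives no value of agreement between probe sets.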
